A study of Mus musculus with 38 samples.

Results

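Tubulin genes were followed in whole brain and liver of mice that had carried slow-release pellets of haloperidol or of placebo. The list held 10 genes, 4 of α-tubulin (Tuba1a, Tuba1b, Tuba1c, Tuba4a) and 6 of β-tubulin (Tubb2a, Tubb2b, Tubb3, Tubb4a, Tubb4b, Tubb6). Of these, 8 had a probe set that names a single gene, among 18820 genes so measured, and the probe set with the highest mean over all 38 arrays stood for each gene. Tuba1c and Tubb3 had only probe sets that join several gene names and were not analysed as single genes. The family was selected on measured values: Tubb4b was known to be higher with haloperidol in brain, and Tubb4b and Tuba1b lower in liver. Differences between haloperidol and placebo are therefore given for the members as a description, with no p-value printed. Which members passed a threshold is stated as part of that description.

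Whole brain was measured in 10 mice given haloperidol and 10 given placebo, and liver in 9 and 9. Each array held RNA of 1 mouse of the inbred strain C57BL/6J after 30 days of treatment. Haloperidol is an antipsychotic that blocks dopamine D2 receptors. No dose, age or sex is in the labels, and no genetic change is labelled. The animals were bred in-house from founders of a commercial colony. The values are log2 expression values, so a difference of 1 is a doubling. The tissues were normalized apart, so levels are compared within a tissue, and the number of arrays limits the precision.

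Microtubules are hollow filaments built from dimers of α- and β-tubulin, and each of these proteins is encoded by several genes, the isotypes. Tuba1b, Tubb4b and Tubb6 are isotypes of many cell types, and Tubb4b is also a main β-tubulin of cilia. Tuba1a, Tubb2a, Tubb2b and Tubb3 are prominent in neurons, Tubb4a in neurons and oligodendrocytes, and Tuba4a in mature neurons, muscle and platelets. New tubulin is folded by prefoldin and the chaperonin CCT and is then assembled by tubulin cofactors. Cells also degrade tubulin messengers when free dimers accumulate, a feedback that recognises the nascent chain.

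The comparison of tissues turns on Tubb4b and Tuba1b, so their promoters are shown, beside those of Tuba1a, the neuronal α isotype that was called in brain, and Tubb4a, a neural β isotype that was not. Each line gives the 250 bases before the RefSeq start (GRCm38.p6), 5′ to 3′ on the gene's strand, which is minus for these genes. Capitals mark matches on either strand to CCAAT, the GC box GGGCGG or TATAAA. None of these matches overlap.

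Tubb4b: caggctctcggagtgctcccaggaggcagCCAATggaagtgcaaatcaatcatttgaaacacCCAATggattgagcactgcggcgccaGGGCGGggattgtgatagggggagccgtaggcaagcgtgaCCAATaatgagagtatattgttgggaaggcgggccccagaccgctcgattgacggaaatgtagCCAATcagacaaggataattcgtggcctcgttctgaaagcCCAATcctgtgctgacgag
Tuba1b: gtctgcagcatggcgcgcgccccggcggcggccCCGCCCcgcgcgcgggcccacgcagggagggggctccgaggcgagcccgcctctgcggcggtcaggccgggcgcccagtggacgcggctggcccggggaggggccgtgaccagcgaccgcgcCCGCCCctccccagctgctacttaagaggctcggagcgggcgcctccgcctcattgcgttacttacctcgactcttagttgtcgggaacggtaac
Tuba1a: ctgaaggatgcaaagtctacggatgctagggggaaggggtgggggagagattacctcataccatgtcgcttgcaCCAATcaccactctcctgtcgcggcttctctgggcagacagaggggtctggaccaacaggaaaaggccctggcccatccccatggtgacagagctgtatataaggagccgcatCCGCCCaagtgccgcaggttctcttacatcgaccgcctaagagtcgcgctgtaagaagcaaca
Tubb4a: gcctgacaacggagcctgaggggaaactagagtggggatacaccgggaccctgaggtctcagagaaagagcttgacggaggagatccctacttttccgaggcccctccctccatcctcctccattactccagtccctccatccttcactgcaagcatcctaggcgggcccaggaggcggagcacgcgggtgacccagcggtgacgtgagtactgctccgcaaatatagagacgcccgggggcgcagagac

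The windows lie at chr2:25224703-25224952 for Tubb4b, chr15:98934391-98934640 for Tuba1b, chr15:98953502-98953751 for Tuba1a and chr17:57087601-57087850 for Tubb4a. The Tubb4b window held 5 copies of CCAAT, all on the gene's strand and starting 221, 188, 122, 59 and 19 bases before the start, and 1 GC box. Among 32851 RefSeq promoter windows of the same length, 33.8% held CCAAT on either strand and 0.213% held it at least 5 times. This feature was singled out after the sequences were seen. Tuba1b held 2 GC boxes, Tuba1a held 1 CCAAT and 1 GC box, and Tubb4a held none of the 3 motifs. GC boxes occurred in 32.7% of all windows, and TATAAA in 12.4%. A promoter window was at hand for 8 listed members, which are not the 8 with a single-gene probe set. They include Tuba1c and Tubb3, which were not analysed as single genes, and lack Tubb2b and Tubb6. Of these 8 windows, 4 held CCAAT (Tubb4b, Tuba1a, Tuba1c and Tubb3), 6 held a GC box and 1, that of Tubb2a, held TATAAA. The E box CACGTG occurred in 0 of them and in 6.0% of all windows. The GC content was 54.4% for Tubb4b, 75.6% for Tuba1b, 56.8% for Tuba1a and 61.6% for Tubb4a, against a median of 52.4% over all windows.

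Tissue markers matched the labels. In brain all 8 neuron markers and 1 of 8 hepatocyte markers lay above the limit for dim genes, 5.52, and in liver all 8 hepatocyte markers and 2 of 8 neuron markers lay above its limit of 3.92. Some brain arrays stood apart. The albumin gene Alb was at 11.11 in haloperidol 4T against a median of 4.23, and the growth hormone gene Gh, with a brain median of 5.15, reached 11.49 in placebo 1L and, among haloperidol arrays, 10.45 in 1R and 10.19 in 2N. Arrays are named by the tag in their titles, whose meaning is not stated. The array median over all probe sets also differed by treatment in brain, at 6.19 ± 0.072 (SD, n = 10) with haloperidol and 6.33 ± 0.044 (SD, n = 10) with placebo, and in liver it was 4.89 ± 0.090 (SD, n = 9) and 4.80 ± 0.082 (SD, n = 9).

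In brain, broadly expressed and neuronal isotypes were both among the genes called higher with haloperidol. Calls are genes with a Benjamini-Hochberg adjusted p under 0.05 in limma over all 12547 genes tested in the tissue. Tubb4b, Tuba1b, Tuba1a, Tubb2a and Tubb2b were called, 5 of the 8 members tested, and 0 were called lower. Over all genes tested 15.2% were called higher and 15.2% lower, and nothing is read from the members' count because the same contrast chose them. The median change was 0.16 over the members and -0.02 over all genes. In bulk tissue, fewer cells of a type and less RNA per cell cannot be told apart.

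Tubb4b had the largest change of the members in brain. With placebo it ran from 9.99 to 10.60 with a median of 10.27, and with haloperidol from 10.23 to 11.28 with a median of 10.76. The placebo mean was exceeded by 9 of 10 haloperidol arrays, all but 1R, and the highest placebo array by 7. The mean rose from 10.26 ± 0.192 to 10.71 ± 0.292 (SD, n = 10 each), a log2 change of 0.45 (SE 0.103) or 1.37-fold. The highest array, haloperidol 4N, also had the lowest array median, 6.08.

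Tuba1a, an α-tubulin abundant in young and growing neurons, followed with a log2 change of 0.36 (SE 0.082). Its placebo arrays ran from 11.82 to 12.35 (median 12.18) and its haloperidol arrays from 12.13 to 12.81 (median 12.53). The groups overlapped, yet 8 of 10 haloperidol arrays exceeded every placebo array. Tuba1b, the broadly expressed α isotype, changed less, by 0.14 (SE 0.048), but with a small spread: placebo arrays lay between 11.97 and 12.28 (median 12.20) and haloperidol arrays between 12.21 and 12.46 (median 12.30). All 10 haloperidol arrays were above its placebo mean.

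Tubb2a and Tubb2b, closely related β isotypes of neurons, had equal changes. Tubb2a lay between 10.07 and 10.45 (median 10.30) with placebo and between 10.31 and 10.78 (median 10.49) with haloperidol, a log2 change of 0.18 (SE 0.062). Tubb2b lay between 10.13 and 10.49 (median 10.31) with placebo and between 10.28 and 10.68 (median 10.50) with haloperidol, also a change of 0.18 (SE 0.062). In both genes some arrays of the groups overlapped, with 7 and 5 haloperidol arrays above the highest placebo array.

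Tubb4a, Tuba4a and Tubb6 were not called in brain. For Tubb4a the haloperidol arrays, from 11.34 to 11.73 (median 11.43), lay within much the same range as the placebo arrays, from 11.29 to 11.69 (median 11.56), and the difference was -0.06 (SE 0.059). Tuba4a ran from 11.42 to 11.76 (median 11.68) with placebo and from 11.64 to 11.83 (median 11.72) with haloperidol, a difference of 0.05 (SE 0.045). Tubb6 ran from 5.79 to 6.31 (median 6.09) and from 5.67 to 6.53 (median 6.15), a difference of 0.04 (SE 0.095). So the uncalled genes included a broad and a neural isotype, and the called ones included both kinds as well. Called were 2 of 3 broad isotypes tested and 3 of 4 neural ones, with Tuba4a, not called, counted in neither kind. Over all genes tested 15.2% were called higher, and nothing is read from these counts, since the same contrast chose the members.

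**Figure D1:**
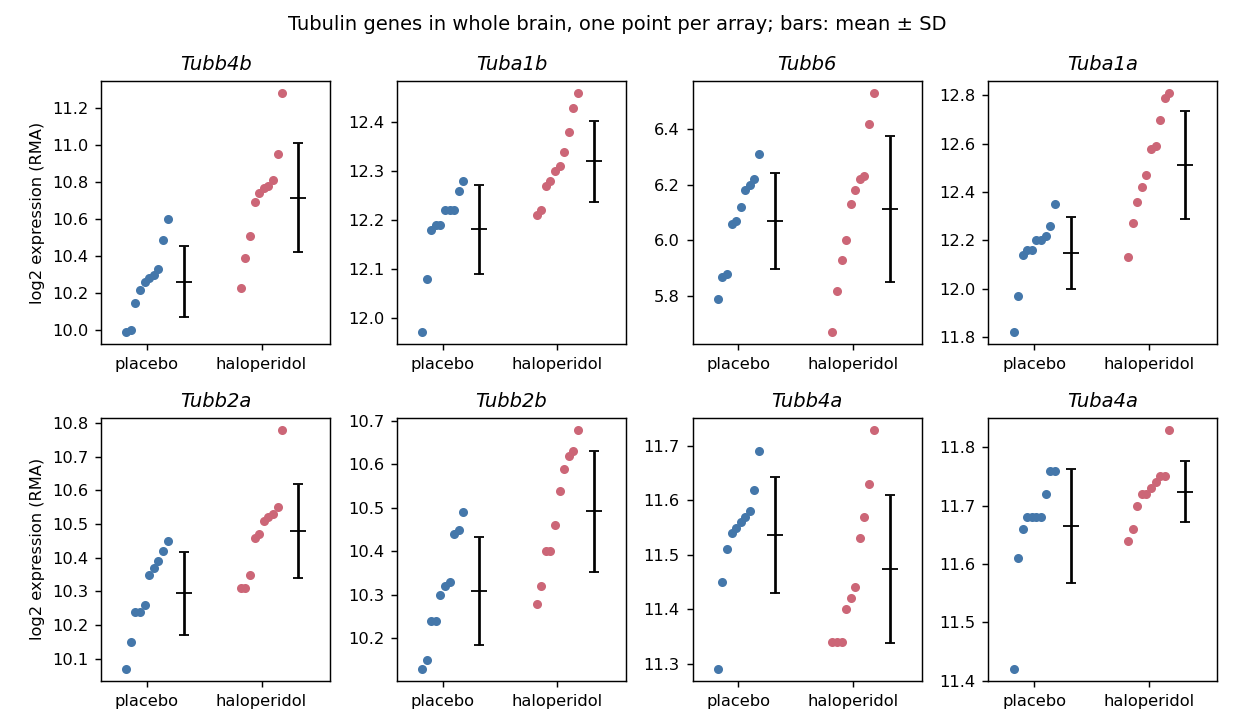
Log2 expression of the 8 tubulin genes in whole brain, one panel per gene with its own axis, one point per array (blue placebo, red haloperidol, 10 each) and the mean ± SD beside the points. For Tubb4b, Tuba1b, Tuba1a and Tubb2a, 7 or 8 of 10 haloperidol points lie above all placebo points, and for Tubb2b 5 do. Haloperidol points of Tubb4a, Tuba4a and Tubb6 overlap the placebo points widely.

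Differences between 2 members within an array do not move when the array is shifted as a whole. Tubb4b minus Tubb4a ran from -1.46 to -0.96 with placebo and from -1.33 to -0.06 with haloperidol, and 7 of 10 haloperidol arrays exceeded every placebo array. On average this difference was 0.51 (SE 0.136) higher with haloperidol. Tuba1a minus Tuba4a ran from 0.29 to 0.67 with placebo and from 0.47 to 1.07 with haloperidol, 0.31 (SE 0.079) higher on average. The first pair sets the member chosen for its rise against the one of lowest change, so these differences restate the single-gene values and support nothing further.

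The size of the brain changes moved with the array median. With the median subtracted from each array, 6 members were called higher, Tuba4a joining at 0.19, and Tubb4a was at 0.08 in place of -0.06. The same subtraction called 32.6% of all genes higher and 3.72% lower. Subtraction raised every brain change by 0.14. With the array median as a covariate, 0 members and 0 of all genes were called, Tubb4b was at 0.06, Tuba1a at 0.19 and Tuba1b at 0.03, and Tubb2a (-0.01) and Tubb2b (-0.02) turned direction. Since the array median itself differed by treatment, what it takes from the changes and what treatment gives to them cannot be told apart. After quantile normalization within the tissue, and in a fit of all 38 arrays, 2 members were called, Tuba1a and Tubb4b. Of all genes, 20.2% were called higher and 15.6% lower in the first of these and 13.5% and 10.4% in the second.

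The calls of Tuba1b, Tubb2a and Tubb2b lay near the threshold. In fits that left out 1 array their changes stayed at 0.12 to 0.15, 0.15 to 0.20 and 0.16 to 0.20, while their calls were lost in some. The count of members called fell to 3 without haloperidol 1B or 3B and to 2 when haloperidol 3R or 4N, or placebo 1N or 2B, was left out. Without placebo 1L or 2R it was 4, since Tubb2b lost its call. Tubb4b and Tuba1a kept theirs in all 20 fits that left out 1 array, with changes of 0.39 to 0.51 and 0.33 to 0.41. Of all 12547 genes, these fits called from 2873 (without haloperidol 3B) to 4814 (without haloperidol 1R), higher and lower together. The refits reuse the contrast that chose the members, so nothing is read from which calls held. With 3 arrays left out together (placebo 1L and, of haloperidol, 4N and 4T), Tubb4b was at 0.35 and Tuba1a at 0.37, both called, and Tuba1b (0.13), Tubb2a (0.14), Tubb2b (0.14), Tubb4a (-0.07), Tuba4a (0.04) and Tubb6 (-0.01) were not. In that fit 9.48% of all genes were called higher and 10.7% lower. It kept haloperidol 1R and 2N, which like placebo 1L were high in Gh, and no fit left out these arrays together. Tubb4b was at its lowest of each group in haloperidol 1R, 10.23, and placebo 1L, 9.99. Within the groups of arrays that share a tag digit, from 1 to 4, each of few arrays, Tubb4b changed by 0.41, 0.43, 0.60 and 0.29.

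In liver the members lay lower with haloperidol. Limma called 0 of the 7 members tested and 0% of all 12547 genes in either direction (0% higher, 0% lower). At an unadjusted p under 0.05 there were 4 members, Tubb4b, Tuba1b, Tubb6 and Tuba4a, all lower, while 6.76% of all genes were lower and 3.73% higher at that level. The Wilcoxon test also called 0 members, with 4 at an unadjusted p under 0.05, all lower, against 6.11% of all genes lower and 2.88% higher. Again nothing is read from these counts. All 7 tested members had a change below 0, with a median of -0.29 against -0.02 over all genes.

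Tubb4b ran from 9.41 to 9.78 (median 9.61) in placebo livers and from 8.82 to 9.44 (median 9.25) in haloperidol livers. Of the 9 haloperidol arrays, 8 lay below every placebo array. The remaining one, 4L at 9.44, lay above the lowest placebo value, and 6 of 9 placebo arrays exceeded it. The mean was 9.58 ± 0.133 with placebo and 9.18 ± 0.188 with haloperidol (SD, n = 9 each), a difference of -0.39 (SE 0.082). Tuba1b was separated in a similar way, from 10.15 to 10.48 (median 10.26) with placebo and from 9.64 to 10.18 (median 10.05) with haloperidol. Here too 8 of 9 haloperidol arrays lay below every placebo array, and 8 of 9 placebo arrays lay above every haloperidol array. The difference was -0.38 (SE 0.082).

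Tubb6 and Tuba4a were lower by like amounts relative to their spread. Tubb6 ran from 5.67 to 6.71 (median 5.88) with placebo and from 5.16 to 5.93 (median 5.59) with haloperidol, a difference of -0.35 (SE 0.125), and the placebo value of 6.71 in 1L stood apart from the next, 6.02. Tuba4a ran from 10.49 to 11.02 (median 10.74) and from 10.27 to 10.75 (median 10.50), a difference of -0.22 (SE 0.082). All 9 haloperidol arrays of both genes lay below the placebo mean, although the groups overlapped.

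The neural isotypes were less even in liver. Tuba1a ran from 7.01 to 7.78 (median 7.30) with placebo and from 6.69 to 7.59 (median 7.14) with haloperidol, a difference of -0.21 (SE 0.127). Tubb2a spread widely within both groups, from 7.0 to 9.11 (median 7.77) and from 6.61 to 8.71 (median 7.66), so that its difference of -0.29 had an SE of 0.278. Tubb2b lay near the dim limit, from 3.82 to 4.69 (median 4.12) and from 3.55 to 4.40 (median 4.06), with a difference of -0.26 (SE 0.141). Tubb4a was below that limit, from 2.41 to 3.55 with placebo and from 2.36 to 3.05 with haloperidol, and was not tested.

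**Figure D2:**
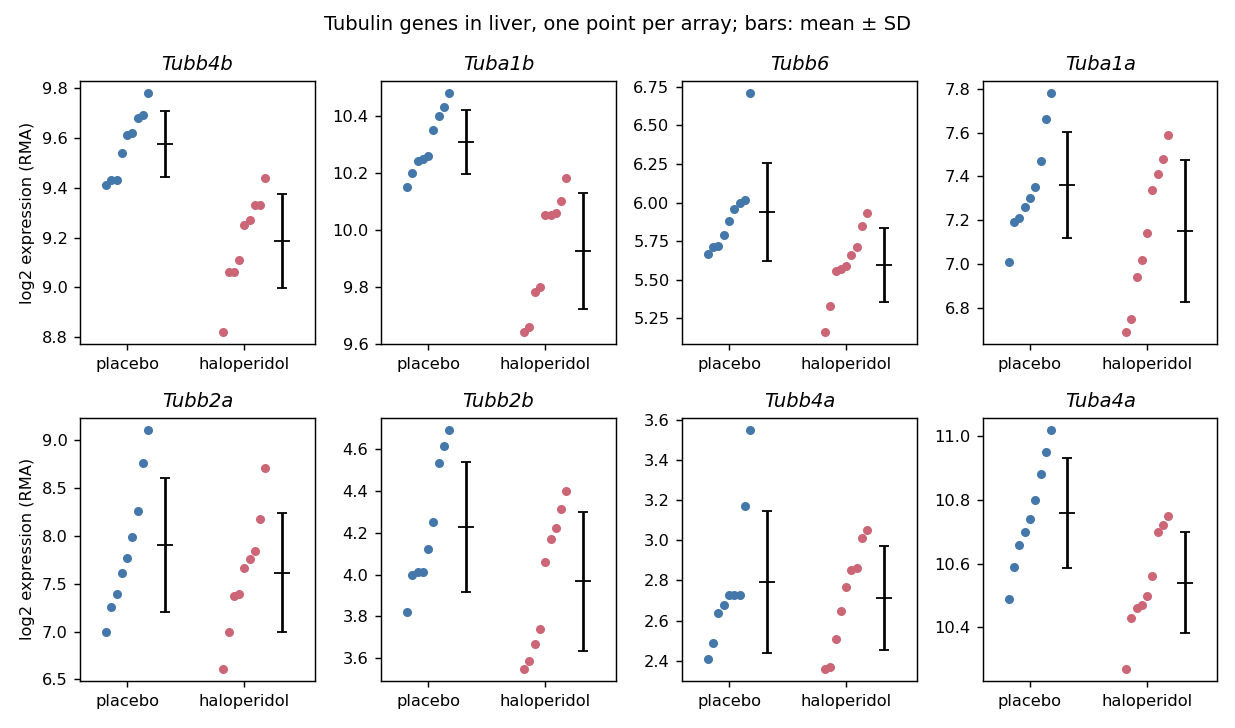
Log2 expression of the 8 tubulin genes in liver, one panel per gene with its own axis, one point per array (blue placebo, red haloperidol, 9 each) and the mean ± SD beside the points. For Tubb4b and Tuba1b, 8 of 9 haloperidol points lie below all placebo points, while Tubb2a spreads over about the same range in both groups.

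Within the tag digits the liver change of Tubb4b was -0.48, -0.48, -0.52 and -0.05, and that of Tuba1b was -0.27, -0.52, -0.45 and -0.29. Each value rests on few arrays. In digit 2 the only placebo array was 2B, and digit 4, where Tubb4b showed almost no change, set 4L and 4N against 4B and 4R. In fits that left out 1 array, Tubb4b stayed between -0.42 and -0.35 and Tuba1b between -0.41 and -0.35. In a fit of all 38 arrays, which alters the variance and not the change, Tuba1b was called, with 0.151% of all genes called lower and 0.167% higher. With the array median subtracted the changes were -0.48 for Tubb4b and -0.47 for Tuba1b. Within an array, Tubb4b minus Tubb5, another widely expressed β-tubulin, went from a mean of 0.62 to 0.41, a difference of -0.22 (SE 0.085), and Tuba1b minus Tuba4a from -0.45 to -0.62, a difference of -0.16 (SE 0.070).

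The members' changes were set side by side across tissues as a description, since the values of both tissues were used to choose them. The liver change minus the brain change was -0.85 (SE 0.136) for Tubb4b, -0.57 (SE 0.151) for Tuba1a, -0.52 (SE 0.092) for Tuba1b, -0.44 (SE 0.152) for Tubb2b and -0.27 (SE 0.090) for Tuba4a. These 5 of 7 members were called lower in a fit of all 38 arrays, where 13.9% of 10869 genes were called lower and 9.16% higher. A fit with the shared tag as a replicate block called 3, without Tuba4a (-0.27) and Tubb2b (-0.44), and called 9.8% of all genes lower and 6.32% higher. Tubb2a (-0.48, SE 0.280) and Tubb6 (-0.39, SE 0.158) were not called, Tubb2a having the largest SE of the 7. After subtraction of each array median all 7 were called, these at -0.70 and -0.61, and so were 37.5% of all genes lower and 2.5% higher.

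**Figure D3:**
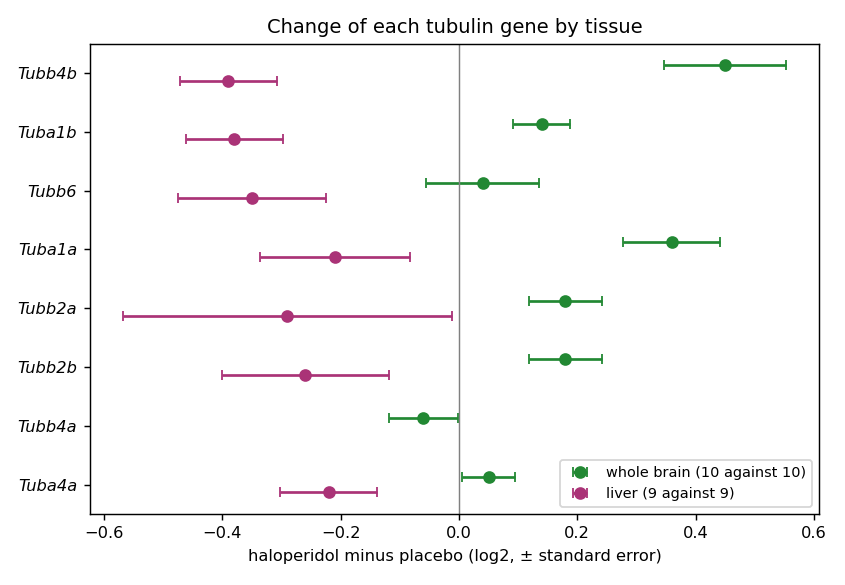
Haloperidol minus placebo on the log2 scale for each tubulin gene, with its standard error, in whole brain (green) and liver (purple). Brain values run from -0.06 for Tubb4a to 0.45 for Tubb4b, and liver values from -0.39 for Tubb4b to -0.21 for Tuba1a, with no liver point for Tubb4a, which was too dim.

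Tubulin genes resemble one another in sequence, so probe sets were compared with each other. Tubb4b had a further probe set, which changed by 0.38 in brain and -0.41 in liver against 0.45 and -0.39 for the one used. A further Tuba1b probe set changed by 0.22 and -0.41 against 0.14 and -0.38. Of 3 probe sets annotated with 2 or 3 Tuba1 genes at once, the one for Tuba1a and Tuba1b changed by 0.13 in brain and -0.37 in liver, the one for Tuba1b and Tuba1c by 0.11 and -0.41, and the one for all 3 by 0.14 and -0.38. At these 3, as at both Tuba1b probe sets, 10 of 10 haloperidol brains were above and 9 of 9 haloperidol livers below the placebo mean. The probe set for Tubb3 and the receptor gene Mc1r together changed by 0.16 in brain and -0.03 in liver, and the one for Tuba4a and the kinase gene Stk16 by 0.36 and 0.02, unlike the single-gene Tuba4a values. A probe set naming Tubb2a, Tubb2b and Tubb2a-ps2 changed by 0.15 in brain and -0.07 in liver. Its liver means were 3.85 with haloperidol and 3.92 with placebo. The single-gene probe sets of Tubb2a and Tubb2b changed by -0.29 and -0.26 in liver. How far near-identical messengers share probes is uncertain, so the values of Tuba1b may hold signal of Tuba1a and Tuba1c.

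**Figure D4:**
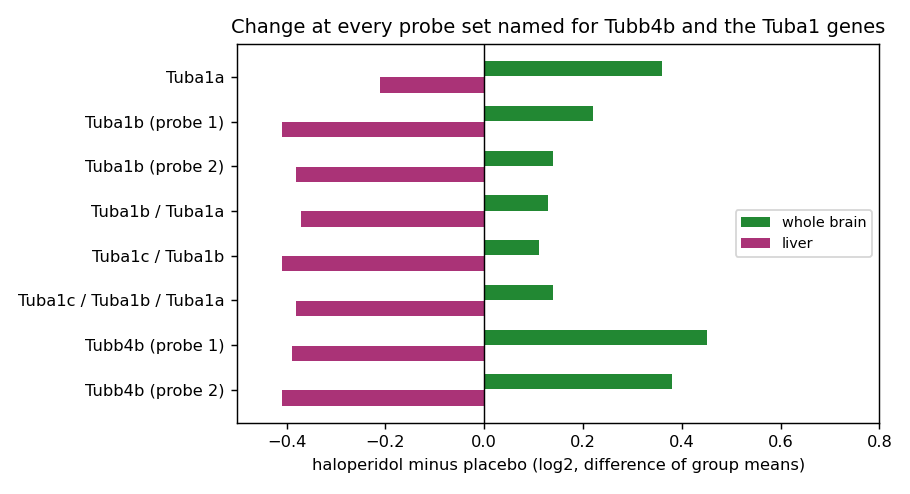
Difference of group means, haloperidol minus placebo, on the log2 scale at the 8 probe sets named for Tubb4b or Tuba1 genes only, in whole brain (green) and liver (purple). All 8 bars are above 0 in brain, from 0.11 to 0.45, and below 0 in liver, from -0.41 to -0.21.

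Relations between members within a group do not depend on the contrasts that chose them. Over 26 such relations, adjusted together by Benjamini-Hochberg, Tubb4b and Tuba1b were correlated in haloperidol brains (Pearson r = 0.85, permutation p = 0.00192, adjusted 0.0166, n = 10; Spearman rho 0.87, permutation p = 0.00219, adjusted 0.0285) and in placebo livers (r = 0.91, exact permutation p = 0.00122, adjusted 0.0159, n = 9; rho 0.90, p = 0.00203, adjusted 0.0285). Without the 2 arrays farthest from the median of Tubb4b, r was 0.77 and 0.94. In placebo brains the relation was not significant (r = 0.55, permutation p = 0.102, adjusted 0.151; rho 0.39, p = 0.264, adjusted 0.350), nor in haloperidol livers (r = 0.30, exact permutation p = 0.440, adjusted 0.458; rho 0.32, p = 0.410, adjusted 0.464). The differences between these r values were not tested.

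Tuba1a and Tuba1b were correlated in haloperidol livers (r = 0.93, exact permutation p = 0.000642, adjusted 0.0159; rho 0.87, p = 0.00451, adjusted 0.0391; r = 0.96 without the 2 outermost arrays) and in haloperidol brains (r = 0.83, permutation p = 0.00338, adjusted 0.0207; rho 0.79, p = 0.00915, adjusted 0.0502; r = 0.89 without 2). Tubb2a and Tubb2b were correlated in haloperidol brains (r = 0.79, permutation p = 0.00399, adjusted 0.0207; rho 0.75, p = 0.0172, adjusted 0.0745; r = 0.68 without 2). In the other groups neither relation passed: for Tuba1a and Tuba1b r was 0.64 in placebo brains (permutation p = 0.0588, adjusted 0.109; -0.01 without 2) and 0.40 in placebo livers (exact permutation p = 0.290, adjusted 0.343). For Tubb2a and Tubb2b r was 0.51 in placebo brains (permutation p = 0.132, adjusted 0.180), 0.69 in haloperidol livers (exact permutation p = 0.0400, adjusted 0.0946) and 0.44 in placebo livers (exact permutation p = 0.240, adjusted 0.297). Tubb4b and Tubb2a had r = 0.79 in haloperidol brains (permutation p = 0.00812, adjusted 0.0352; rho 0.53, p = 0.124, adjusted 0.215), which fell to 0.36 without 2 arrays and so rested on them, and adjusted p was 0.151 in placebo brains (permutation, r = 0.55), 0.0812 in haloperidol livers (r = 0.71) and 0.235 in placebo livers (r = 0.49). Arrays share their normalization, which can make genes vary together. Across tags shared by brain and liver, Tubb4b showed no significant relation between the tissues (r = 0.34 with haloperidol, exact permutation p = 0.369, adjusted 0.400; rho 0.10, p = 0.810, adjusted 0.810; r = -0.60 with placebo, p = 0.0914, adjusted 0.149; rho -0.60, p = 0.0968, adjusted 0.197).

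The correlation of Tubb4b with the array median was below 0 in each of the 4 groups, and in none did it pass after adjustment. In placebo brains r was -0.71 (permutation p = 0.0203, adjusted 0.0661; rho -0.79, p = 0.00965, adjusted 0.0502; r = -0.51 without the 2 outermost arrays). In haloperidol brains r was -0.69 (permutation p = 0.0298, adjusted 0.0812; rho -0.47, p = 0.178, adjusted 0.257), and it was 0.02 without 2 arrays. Placebo livers gave r = -0.78 (exact permutation p = 0.0163, adjusted 0.0605; rho -0.67, p = 0.0589, adjusted 0.153; r = -0.72 without 2). Haloperidol livers gave r = -0.35 (exact permutation p = 0.356, adjusted 0.400; rho -0.33, p = 0.385, adjusted 0.455). For Tuba1b, r with the array median was -0.61 in placebo brains (permutation p adjusted 0.109) and -0.58 in haloperidol brains (adjusted 0.126). In livers r for Tuba1b was -0.68 with placebo (exact permutation p adjusted 0.104) and 0.05 with haloperidol (adjusted 0.897). Without the 2 outermost arrays these 4 values were -0.31, -0.17, -0.63 and -0.53.

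**Figure D5:**
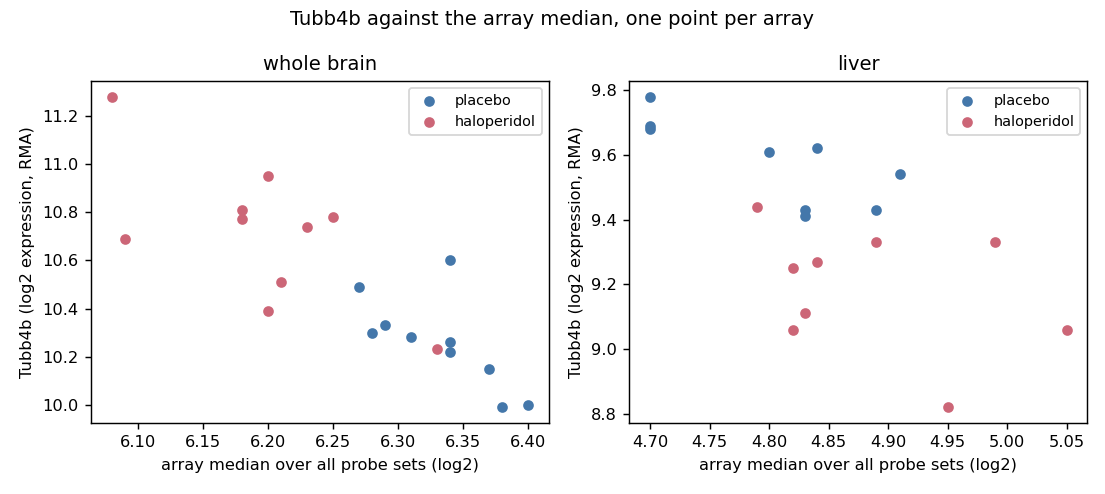
Tubb4b (log2 expression) against the array median over all probe sets (log2) in whole brain and liver, one point per array (blue placebo, red haloperidol). In brain the haloperidol arrays lie at lower medians and mostly higher Tubb4b, with haloperidol 1R at a median of 6.33 among the placebo arrays, and in liver most haloperidol arrays lie lower in Tubb4b over the range of medians they share with placebo.

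The genes whose residuals from the group means were most like those of Tubb4b in brain were Gtf2h5, Cope and Pebp1 (r = 0.96 each, 20 arrays), against r between 0.69 and 0.78 for Tuba1a, Tuba1b, Tubb2a and Tubb2b, 0.25 for Tuba4a, 0.14 for Tubb6 and -0.27 for Tubb4a. For Tuba1b they were Atp5g1 (0.92), Uchl1 (0.92) and Ptpa (0.91), and for Tuba1a Nme2 (0.93), Rab33a (0.91) and 1110004F10Rik (0.91). In liver, over 18 arrays, they were Bmyc (0.84), Slc39a9 (0.81) and Dusp8 (0.80) for Tubb4b, Hacl1 (0.92), Gla (0.91) and Gstk1 (0.91) for Tuba1b, and Ropn1l (0.90), Supt3 (0.89) and Tbx20 (0.87) for Tuba1a. No gene was among the 3 nearest of the same member in both tissues. With only 3 taken from all genes tested, overlap was unlikely from the start, so nothing is read from its absence. The nearest genes are descriptions, chosen as the highest of all genes tested.

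Arrays that share a tag digit did not differ in the members beyond the threshold. An F test over the 4 digits with treatment in the model called 0 of 8 members in brain, where it called 0.135% of all genes, and 0 of 7 in liver, where it called 1.11%. At an unadjusted p under 0.05 in limma there were 2 of 8 members in brain, Tubb2a and Tubb4b, where 12.9% of all genes were at that level, and 1 of 7 in liver, Tubb6, against 20.4%.

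Among other tubulins, 1 of 7 tested in brain was called, Tube1, the ε-tubulin gene of centrioles, which fell by 0.20 (SE 0.069), a call that was lost with the array median subtracted. Of all genes tested in brain, 15.2% were called lower. Tubb5 was at 0.01 (SE 0.055) in brain and -0.18 (SE 0.070) in liver. In liver 0 of 8 were called, and 7 of 8 had a change below 0.

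Genes that fold tubulin were counted in brain beside the 15.2% of all genes called higher and 15.2% called lower there. Of 8 subunits of the chaperonin CCT, 6 rose and 0 fell, among them Cct6a by 0.44 (SE 0.115), Cct3 by 0.42 (SE 0.111), Cct4 by 0.38 (SE 0.113) and Cct5 by 0.36 (SE 0.092). Of 5 prefoldin subunits, which hand new chains to CCT, 4 rose: Pfdn5 by 0.98 (SE 0.197), Vbp1 by 0.54 (SE 0.150), Pfdn1 by 0.40 (SE 0.119) and Pfdn2 by 0.18 (SE 0.059). Of 7 cofactor genes 3 rose, Tbca, which binds β-tubulin, by 0.53 (SE 0.112), Tbcb, which binds α-tubulin, by 0.52 (SE 0.110) and the small GTPase gene Arl2 by 0.38 (SE 0.110), while 3 of the 7 had a change below 0. The lists' medians were 0.29, 0.40 and 0.15. With the array median subtracted 8, 5 and 4 were called higher, where 32.6% of all genes were, and with it as a covariate 0 of all genes passed.

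In liver 0 genes of these lists were called, while 8 of 8 CCT, 4 of 5 prefoldin and 7 of 7 cofactor genes had a change below 0, with 3, 1 and 1 lower at an unadjusted p under 0.05 in limma and list medians of -0.15, -0.11 and -0.12. At that level 6.76% of all liver genes were lower and 3.73% higher, and the median change over all genes was -0.02. Ttc5, which recognises nascent tubulin in the feedback on tubulin messengers, was at -0.08 (SE 0.080) in brain, not called, and at -0.00 (SE 0.173) in liver.

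The other microtubule lists held calls in both directions in brain, where 15.2% of all genes were called higher and 15.2% lower. Of 21 microtubule-associated protein genes 6 fell and 1 rose: the plus-end binding genes Clip1 and Clasp1 fell by 0.34 (SE 0.076) and 0.20 (SE 0.055), Map7, which recruits kinesin, fell by 0.30 (SE 0.085), and Tppp3 rose by 0.58 (SE 0.166). With the array median subtracted 1 was lower and 4 were higher, so the balance of this list turned with the scaling. The calls over all genes shifted the same way, to 32.6% higher and 3.72% lower. Of 9 destabilizing and severing genes 1 rose, the stathmin gene Stmn3, by 0.22 (SE 0.070). In the γ-tubulin ring complex, which nucleates microtubules, Tubgcp6 fell by 0.43 (SE 0.103) and Tubgcp4 by 0.13 (SE 0.046), and Mzt1 rose by 0.25 (SE 0.083) and Mzt2 by 0.22 (SE 0.081), 4 of 8 genes in all. Of 16 tubulin-modifying enzymes 1 was called, the glutamylase gene Ttll4, which fell by 0.42 (SE 0.096), and 4 were higher and 1 lower with the array median subtracted. In liver 0 genes of these 4 lists were called, and Ttll1, a polyglutamylase gene, was at -0.54 (SE 0.117) there and at 0.08 (SE 0.077) in brain. Ttll1 had the lowest liver change of the 16 modifying enzymes tested, while 10 of them had a change above 0 and the list's liver median was 0.04.

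Cell type markers moved with the members in places, and their part in the members' changes was not tested. In brain 0 of 8 neuron markers and 0 of 4 tested markers of immature neurons were called, with median changes of -0.07 and -0.14, while 2 of 6 oligodendrocyte, 2 of 6 choroid plexus, 1 of 7 astrocyte, 1 of 7 endothelium, 1 of 4 ciliated ependyma and 2 of 5 stellate cell markers rose. Over all genes tested in brain 15.2% were called higher and 15.2% lower. After subtraction of the array median the markers called higher were 2 of neurons, 1 of immature neurons, 3 of oligodendrocytes, 3 of choroid plexus, 4 of astrocytes, 3 of endothelium, 3 of ciliated ependyma, 2 of stellate cells and 9 of microglia and macrophages. That subtraction called 32.6% of all genes higher and 3.72% lower. The mean level per array of the ependyma list was 6.07 to 6.74 with haloperidol and 5.89 to 6.43 with placebo, and that of the oligodendrocyte list 9.82 to 10.37 and 9.67 to 10.34. Of the microglia and macrophage markers in brain, 5 of 10 rose (mean log2 level of the list per array 7.56 to 8.13 with haloperidol, 7.18 to 7.76 with placebo), and in liver 0 were called and 9 of 10 had a change below 0, 6 of them at an unadjusted p under 0.05 in limma (6.49 to 6.88 with haloperidol, 6.57 to 7.12 with placebo). Of 7 tested markers of proliferating cells in liver, 0 were called and 7 had a change below 0, and the list's mean per array was 4.43 to 4.77 with haloperidol and 4.74 to 5.06 with placebo, with 4 at an unadjusted p under 0.05 in limma. At that level 6.76% of all liver genes were lower and 3.73% higher.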

How the data were processed

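Whole brain and liver RNA of 38 samples was measured on Affymetrix arrays. The authors deposited log2 values. The submitters' processing notes name RMA and Affymetrix Expression Console. Versions and array dates: not given in the sources used here. Array medians of the deposited values differed.

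Of 35556 probe sets, 21218 carried 1 gene symbol in GEO's platform annotation, 1881 several, and 12457 were unnamed here. By Entrez ID, 21185 of the first matched RefSeq (GRCm38.p6). The 33.3% of genes with the lowest mean in a tissue were left out. Groups were compared with limma 3.58.1 (R 4.3.3; lmFit, eBayes), with Benjamini-Hochberg adjustment over all genes tested and a threshold of 0.05, two-sided. Correlations used exact permutations for 9 arrays and 100000 resamples for 10. The relation of Tuba1a with Tubb3 was not run, as Tubb3 had no single-gene probe set.

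The members, lists and tests were chosen with earlier results of these data known. Named were all members, up to 4 called genes of smallest p per list, Tubb5, Ttc5, Ttll1 and the 3 genes nearest to Tubb4b, Tuba1b and Tuba1a by residual correlation; Alb and Gh were chosen after their values were seen. The fits were tested on simulated data. Alternatives covered the dim filter, scaling, covariates, variance model, weights, probe choice, arrays fitted and a Wilcoxon test. Within-digit values and further probe sets were added after seeing the data.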

Additional observations from a re-analysis of the deposited data

Results flagged for a closer look

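Of 32 sets of values, 8 genes in 4 groups, 3 held an array far from the others by Dixon's criterion, which chance meets in about 1 in 20 sets. Tuba4a was low in placebo brain 1N, at 11.42 against 11.61 for the next array, and that array was also the lowest placebo brain for Tuba1a, Tuba1b, Tubb2b and Tubb4a. Tubb2a was high in haloperidol brain 4N, at 10.78 against 10.55. Tubb6 was high in placebo liver 1L, at 6.71 against 6.02.

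The liver and brain changes were called different for 5 members, and for 3 with the shared tag as a replicate block, which lost Tuba4a and Tubb2b. The liver change minus the brain change was -0.85 for Tubb4b, -0.57 for Tuba1a, -0.52 for Tuba1b, -0.44 for Tubb2b and -0.27 for Tuba4a. Both contrasts were used to choose the members, so these values are a description.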

How the results depend on the processing

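Of the 5 members called in brain, 2 were called after quantile normalization within the tissue, 2 in a fit of all 38 arrays, 2 when placebo 1L and haloperidol 4N and 4T were left out, and 0 with the array median as covariate, where Tubb2a was at -0.01 and Tubb2b at -0.02. Leaving out 1 array gave 2 to 5, and nothing is read from these counts, since the same contrast chose the members. Without the dim filter 4 were called, Tuba1b being lost. The other alternatives gave 4 to 6. In liver 0 members were called except in a fit of all 38 arrays, which called 1, Tuba1b. The tag digits gave 0 members in both tissues under each alternative run. The cause of these moves was not tested.

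For the difference between tissues, a fit with the shared tag as a replicate block called 3 members in place of 5, without Tuba4a and Tubb2b. The tags gave no sign of pairing: over 18 tags the correlation of a brain and a liver array of the same tag had a median of 0.001, was over 0.1 in 5, and 0 liver arrays were closest to the brain array of their own tag. With the array median subtracted 7 members were called, as were 37.5% of all genes lower. The correlation of Tubb4b and Tuba1b in placebo brains rose from 0.55 to 0.72 with that subtraction (permutation p adjusted 0.0420; rho 0.70, permutation p adjusted 0.0701; r = 0.51 without the 2 outermost arrays). Subtracting the same median from both genes can by itself raise their correlation, so nothing is read from this rise. The number of arrays, not a depth, limits the precision, and signal over background was not used.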
